A study of Mus musculus with 2 samples.

Results

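The genes described here are the sorting nexins and the vacuolar protein sorting (Vps) genes, chosen by name: every array sequence whose gene name in the files began with Snx or Vps followed by a digit. The rule found 61 genes, 30 named Snx and 31 named Vps, of 24171 genes with a symbol on the array, and 125 of 44170 sequences. They were measured in LT-HSC (long-term haematopoietic stem cells), the rare marrow cells that sustain blood formation, sorted by flow cytometry from the femurs of C57/BL6 mice. One group was the WASH knockout and the other its control, given in the labels as wild type. Each was a single Cy3-labelled NimbleGen array. The age of the mice, the number pooled, and the promoter or Cre that removed WASH are not given in the sources used here. With 1 array per genotype there is no spread between animals, and none of the differences below was tested.

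Sorting nexins carry a PX domain, which binds phosphoinositides of endosomal membranes. Those with an added BAR domain also bend membrane into the tubules by which cargo leaves the endosome. Vps genes take their name from yeast mutants that missorted vacuolar enzymes, and most encode subunits of endosomal machines. Retromer returns cargo from the endosome to the Golgi or the plasma membrane, the ESCRT complexes bud ubiquitinated cargo into the lumen, HOPS and CORVET tether endosomes and lysosomes, and GARP tethers incoming vesicles at the Golgi. WASH is an activator of the Arp2/3 complex that retromer recruits to endosomes, where it forms actin patches beside the sorting tubules.

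A gene was represented by its brightest sequence, the one with the highest mean log2 intensity, and its difference is the log2 intensity of the knockout array minus that of the control array. Probes of random sequence gave a level of 71.3 on the control and 75.7 on the knockout array, a measure of background. A gene was taken as in the detected range when its control or knockout value exceeded the median of the same array, 137 on both. Washc1, the gene of WASH itself, read 119 and 107 and was not in that range on either array, so it gives no check of the genotype labels. Of 10 stem cell and sort markers, Procr, Tek and Fgd5 were at or below the random-sequence level on both arrays, while Kit, Ly6a and Cd34 were in the detected range. The summed intensity of these 10 markers was 3087 in the control and 3088 in the knockout, with members in both directions, from Mecom at 350.1 and 163 (-1.10) to Cd34 at 746 and 1105 (0.57). Among markers of other cells, 9 of the 10 erythroid markers were at least 2-fold higher in the knockout. The sum of 10 erythroid markers went from 15268 to 82676, and that of 10 granulocyte and monocyte markers from 144440.5 to 56237. None of either list was at or below the random level on both arrays. On the control array Car1 (37.2) and Klf1 (69.6) were below that level, so the sizes of their differences are not exact. Both were in the detected range on the knockout array alone, at 183 and 192. Summed B lymphoid markers were 799 and 859.9, T and NK markers 1989 and 1338, with Gzmb alone at 756 and 121 and Cd3d, Cd3g and Gzma dim on both, and megakaryocyte markers 1818 and 1431. The part of these shifts in the differences below was not tested. In sorted bulk RNA, fewer cells of a type and less RNA per cell cannot be told apart.

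More of the sorting nexin and Vps genes were lower than higher on the knockout array. Of the 61 genes, 63.9% (39) were lower, beside 48.3% of all genes, and 22 were higher. The median difference was -0.24, beside 0.02 over all 24171 genes. Without any filter 14.8% were at least 2-fold lower and 1.64% at least 2-fold higher, beside 6.42% and 5.94% of all genes. In the detected range were 47 of the 61 genes and 16245 of all genes. Among these 47, 32 were lower by any size (68.1%, beside 48.3% of all genes in the range), 9 genes were at least 2-fold lower and 1 was at least 2-fold higher. The matching shares over all genes in that range were 7.29% lower and 6.41% higher, against 19.1% and 2.13% of the 47. The 9 lower genes were Snx2, Snx5, Snx6, Snx13, Snx27, Snx33, Vps36, Vps37a and Vps45, and the higher gene was Vps13b.

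The detected range bears on these counts. Of the 47 genes, 11 passed on the control array alone, among them 6 of the 9 lower genes, and Vps13b passed on the knockout array alone. Over all genes, 9.05% of those in the range passed on the control array alone and 9.55% on the knockout array alone. Among the 35 genes above the median on both arrays, 3 (Snx5, Snx13 and Vps45) were at least 2-fold lower, or 8.57%, beside 4.75% of all 13224 such genes, and none was 2-fold higher, beside 3.76%. Lower by any size were 21 of the 35, where the share over all such genes was 48.2%, and their median was -0.18. Above percentile 75 of an array lay 24 members, of which 14 were lower by any size, where the share over all genes was 48.8%. Of the 24, 4 were at least 2-fold lower (16.7%, beside 7.13%) and 0 higher (beside 5.68%). The count of 9 lower genes was 5 with an offset added before the log (10.6%, beside 4.52% of all genes). It was 4 of 37 when all sequences of a gene were averaged (10.8%, beside 5.77%). Under both the count of higher genes was 0, beside 3.53% and 4.87% of all genes.

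**Figure D1:**
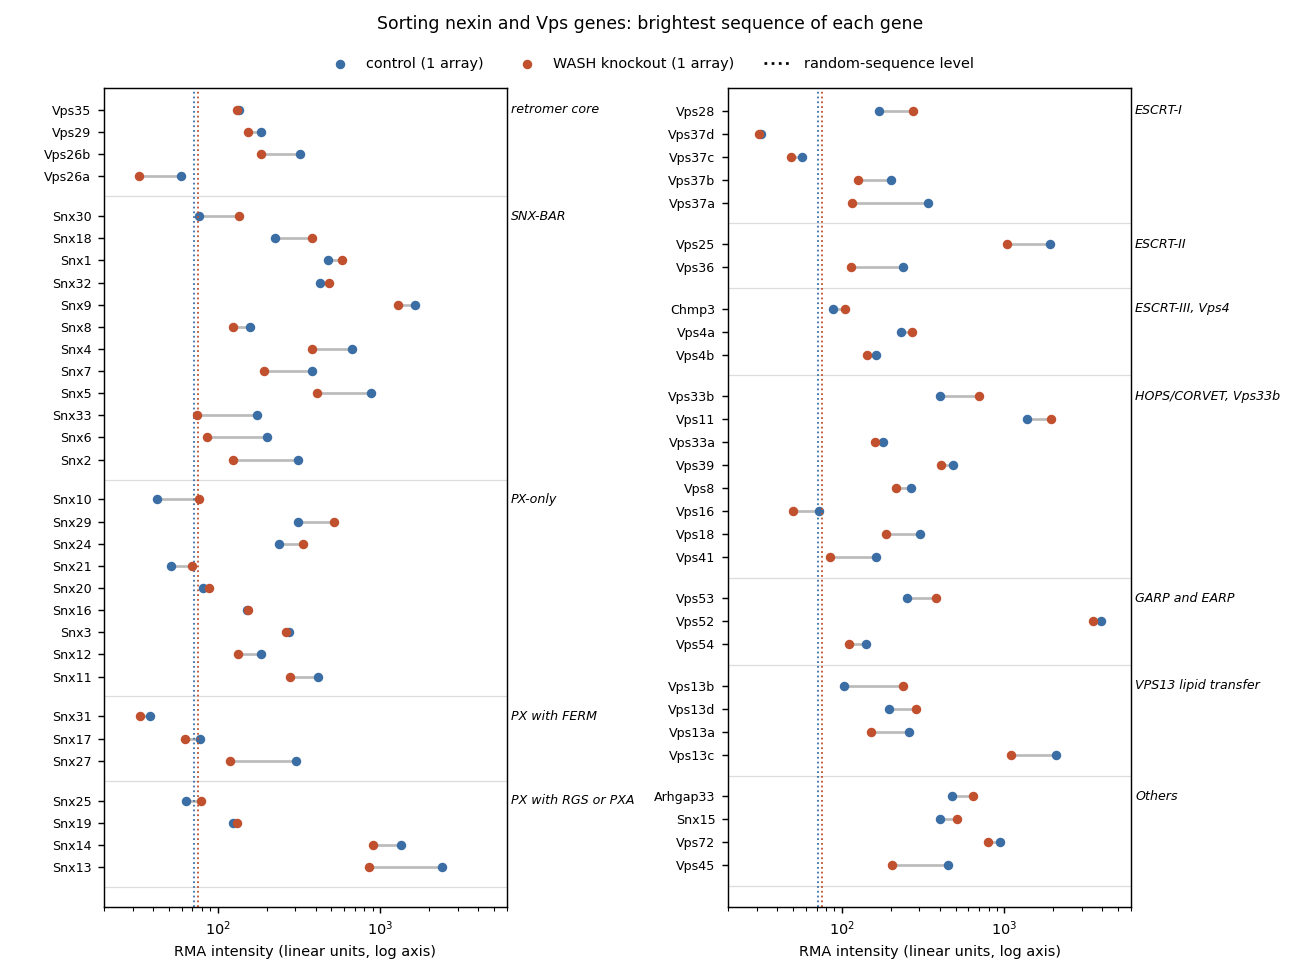
Intensity of the brightest sequence of each of the 61 genes on the control array (blue) and the WASH knockout array (orange), on a log axis, grouped by complex or domain type, with 1 array per genotype and the random-sequence level of each array as a dotted line. Snx2, Snx5, Snx6 and Snx27 lie to the left in the knockout, while Snx1, Snx32 and Vps33b lie to the right.

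The core of retromer consists of Vps35, the long solenoid scaffold, Vps29, which binds its end, and Vps26, which exists as Vps26a and Vps26b. Vps26b read 323 on the control and 186 on the knockout array, which differ by -0.80 (chromosome 9, 26815355 to 26837642, mouse build MM9, as are all positions of array sequences here). Its other 2 sequences differed by -0.91 and -0.17. The first, at 140.1 and 74.3, was in the detected range on the control array alone and shares its span with Thyn1. The second was below the random-sequence level on both arrays and is not interpreted. Vps29 was at 184 and 154, a difference of -0.25, with its other sequence at -0.18. Vps35 read 136 and 131, just under the array median on both arrays, a difference of -0.06. Vps26a, at 59.3 and 32.9, was below the random-sequence level on both arrays, so its difference of -0.85 is not interpreted. The 2 core genes in the detected range, Vps26b and Vps29, were lower, and neither reached 2-fold.

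The sorting nexins that work with retromer did not share a direction. SNX1 or SNX2 pairs with SNX5, SNX6 or SNX32 to form the membrane-bending coat. Of these 5 genes, 3 were at least 2-fold lower in the knockout and the other 2 were slightly higher. The share at least 2-fold lower over all genes in the detected range was 7.29%. Of the 3, Snx2 and Snx6 entered that range on the control array alone, which favours a low difference. Snx2 went from 312 to 125, a difference of -1.31 (chromosome 18, 53336018 to 53380155). Its counterpart Snx1 went the other way, from 478 to 584, a difference of 0.29. Snx5 read 883 on the control and 409 on the knockout array, which differ by -1.11 (chromosome 2, 144075861 to 144096573), and was well clear of the random-sequence level on both arrays, at 12.4 and 5.41 times that level. Snx6 was at 202 and 86.4, a difference of -1.23 (chromosome 12, 55857831 to 55896649). On the knockout array Snx6 stood at only 1.14 times the random-sequence level, and its other, dimmer sequence differed by -0.26. Snx32, which can take the place of Snx5 or Snx6, read 425 and 486, a difference of 0.19, and its other sequence differed by 0.68. Both kinds of partner in this coat therefore held a gene that was lower and a gene that was not. Snx1, Snx2 and Snx5 had 1 sequence each and so no second reading.

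A pair of further sorting nexins hand cargo to retromer. Snx27 has a PDZ domain that reads the tails of recycling receptors and a FERM domain, and its protein binds both Vps26 and the WASH complex. It read 302 on the control and 119 on the knockout array, which differ by -1.34 (chromosome 3, 94305147 to 94386471), from 1 sequence. In the detected range 3.18% of genes had a difference as low or lower. Snx27 entered that range on the control array alone, which favours a low difference, so this rank is no support for it. Snx3, which sorts the Wnt carrier Wntless with retromer and lacks a BAR domain, was at 274 and 264, a difference of -0.06. The cargo Wls itself read 731 and 667, a difference of -0.13.

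Because Snx5 and Snx6 were both lower and encode interchangeable partners, their promoters are shown, from RefSeq on GRCm38.p6, as the 250 bases before the annotated start, 5′ to 3′ on the gene's strand. Letters in capitals mark CACGTG, the E-box read by Myc, Max, USF and TFEB proteins.
Snx5, chr2:144270573-144270822, minus strand: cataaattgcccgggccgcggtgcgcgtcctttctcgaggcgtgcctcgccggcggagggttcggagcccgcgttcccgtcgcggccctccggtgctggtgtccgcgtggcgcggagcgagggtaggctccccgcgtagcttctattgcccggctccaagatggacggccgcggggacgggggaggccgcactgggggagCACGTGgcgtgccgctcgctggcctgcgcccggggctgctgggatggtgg
Snx6, chr12:54795663-54795912, minus strand: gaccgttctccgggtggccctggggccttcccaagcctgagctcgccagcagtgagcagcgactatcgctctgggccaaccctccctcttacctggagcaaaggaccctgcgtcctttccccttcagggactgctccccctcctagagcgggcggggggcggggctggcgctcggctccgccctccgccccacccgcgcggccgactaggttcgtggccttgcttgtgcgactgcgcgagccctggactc
The Snx5 window holds 1 E-box, which begins 50 bases before the start, and the Snx6 window holds none. Of 51 promoter windows found for 41 of the 61 genes, 7 held CACGTG on either strand (13.7%), beside 6.02% of all 32851 windows. The member windows were also richer in G and C, with a median of 61.2% against 52.4%.

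A longer palindrome, a form of the CLEAR element that TFEB uses at lysosomal genes and that contains the E-box, was in 4 of the 51 windows (7.84%) and in 0.240% of all windows. These 4 windows belonged to Vps16, Vps33a and Vps26a, the last with 2. They are shown with the palindrome, and any separate E-box, in capitals, for Vps26a from the window that lies farther from the gene.
Vps26a, chr10:62486806-62487055, minus strand: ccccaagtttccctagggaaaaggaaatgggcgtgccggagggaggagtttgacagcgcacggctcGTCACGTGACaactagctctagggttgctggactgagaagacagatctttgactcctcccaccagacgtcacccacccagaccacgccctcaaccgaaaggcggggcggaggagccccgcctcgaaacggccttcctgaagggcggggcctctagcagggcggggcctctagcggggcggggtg
Vps33a, chr5:123573016-123573265, minus strand: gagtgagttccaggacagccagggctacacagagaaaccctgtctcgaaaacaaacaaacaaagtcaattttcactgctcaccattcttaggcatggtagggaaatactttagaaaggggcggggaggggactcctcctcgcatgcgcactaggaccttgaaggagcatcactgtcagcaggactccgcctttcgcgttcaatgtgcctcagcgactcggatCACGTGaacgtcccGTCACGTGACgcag
Vps16, chr2:130424070-130424319, plus strand: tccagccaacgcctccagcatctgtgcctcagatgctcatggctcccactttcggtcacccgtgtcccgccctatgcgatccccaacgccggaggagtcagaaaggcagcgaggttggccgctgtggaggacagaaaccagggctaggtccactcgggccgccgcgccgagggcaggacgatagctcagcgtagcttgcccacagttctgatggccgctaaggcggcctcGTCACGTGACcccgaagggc
The genes with this palindrome were not those that differed most. Vps33a read 179.7 and 159 (-0.17). Vps16 read 71.9 and 50.2 and was not in the detected range, and neither was Vps26a. Matches are to letters, and binding was not measured. The ETS motif CCGGAAGT was in 7 of the 51 member windows (13.7%) and 2.88% of all windows. The 7 windows belonged to 5 genes, Snx12, Snx14, Snx17, Vps52 and Vps53. Vps52 had more than 1 of them, and overlapping Vps52 windows held the same site. CCAAT was in 31.4% and 33.8%, and the NRF1 palindrome was in none of the 51 member windows and in 0.782% of all windows.

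The other sorting nexins with a BAR domain fell into those that were lower and those whose sequences disagreed. Snx4, which returns the transferrin receptor to the cell surface and serves autophagy, went from 666 to 379, a difference of -0.81. The other Snx4 sequence, at -0.93, was in the detected range on the control array alone. Snx7, the dimer partner of Snx4, went from 379 to 194 (-0.97), but its other sequence differed by 0.20. The related Snx30 was not in the detected range. Snx8, an endosomal nexin, differed by -0.36 and -0.45 with its 2 sequences, both in the detected range on the control array alone. The SH3-bearing nexins of endocytosis were mixed. Snx33 read 174 in the control but 74.7 on the knockout array, not above the random-sequence level there, so it was at least 2.29-fold lower. Snx9, a dynamin-binding nexin of clathrin pits, was at 1639.9 and 1283 (-0.35), and its other 4 sequences, all on an unplaced stretch of the chromosome, ranged from -1.22 to 0.20. Snx18 gave 0.75 from its brightest sequence, while another in the detected range gave -1.13. Of the 12 BAR nexins, 11 were in the detected range, 8 of them lower and 3 higher, with a median of -0.81.

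Snx13 had the lowest value of all sorting nexins, again with a sequence that disagreed. It belongs with Snx14, Snx19 and Snx25 to the nexins with PXA and RGS-like domains, which anchor in the endoplasmic reticulum and contact endosomes or lipid droplets. Its brightest sequence went from 2411 to 848, a difference of -1.51 (chromosome 12, 35731888 to 35776638), far above background on both arrays. A sequence over the same stretch, reaching on to 35819359, went from 86.4 to 171, a difference of 0.98, and the remaining one differed by -0.18. Snx14 read 1338 and 901 (-0.57) with its brightest sequence. Another Snx14 sequence nearly as bright, which covers the low-coordinate end of the gene (chromosome 9, 88271612 to 88293459), went from 1409 to 605 (-1.22), and the last, at 88295560 to 88333767, differed by 0.31. Snx19 and Snx25 were not in the detected range.

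The nexins grouped here as PX-only, for want of the BAR, FERM, PXA or RGS-like domains named above, centred on no difference. The median of the 6 that were detected was -0.01, with 3 higher and 3 lower and none at 2-fold. Snx29 was the highest at 0.73, from 314 to 519, although its other sequence was lower and near background. Both sequences of Snx24 were higher, by 0.49 and 0.62. Snx11 was the lowest at -0.58, from 414 to 277. Snx15, with an added MIT domain, was at 401 and 513 (0.36), and Arhgap33, listed in the files as Snx26, was at 475 and 636 (0.42).

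**Figure D2:**
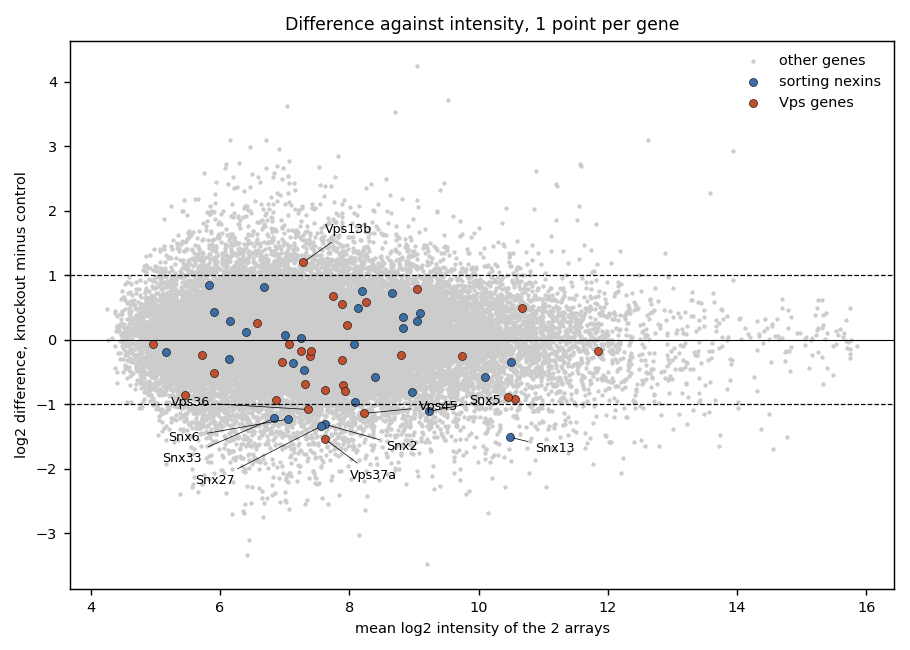
Log2 difference (knockout minus control) against the mean log2 intensity of both arrays, with 1 point per gene, all genes in grey, sorting nexins in blue and Vps genes in orange, and dashed lines at a difference of 1 and -1. Of the 10 labelled genes past a line, 9 lie below and Vps13b above, and Snx13 and Snx5 are those farthest to the right.

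ESCRT-I recognises ubiquitinated cargo and holds Tsg101, Vps28 and a Vps37 subunit. Vps37a was the lowest of all 61 genes. It went from 337 to 116, a difference of -1.54 (chromosome 8, 41597136 to 41628970), and its other 3 sequences differed by -0.77 to -0.12. The sequence at -0.77, like the brightest, was in the detected range on the control array alone, which favours a low difference. The remaining ones were below the random-sequence level on both arrays and are not interpreted. Vps37b was at 201 and 126, a difference of -0.68, and Vps37c and Vps37d were below the random-sequence level on both arrays. Vps28 was higher, reading 170.2 and then 273 on the knockout array (0.68), with its other sequence at 0.21. Thus the subunits of this complex did not share a direction. Tsg101, the ubiquitin-binding subunit named outside the Vps scheme, went from 245 to 111, a difference of -1.14.

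ESCRT-II bridges to the membrane-cutting ESCRT-III, and both of its Vps genes were lower. Vps36, which binds ubiquitin and phosphoinositide, went from 239 to 113, a difference of -1.08 (chromosome 8, 23303331 to 23329069), whereas its other sequence read 97.9 and 97.3. Vps25 went from 1912 to 1034 (-0.89). That brightest Vps25 sequence is annotated as a chimeric clone and its span also covers part of Ramp2. Of the other 3 Vps25 sequences, the complete coding clone went from 762 to 374 (-1.02), another differed by -0.33, and the dimmest, near background, by 0.08. Snf8, the other subunit, was at 373 and 359 (-0.06).

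The ATPases Vps4a and Vps4b, which take ESCRT-III filaments apart, differed by 0.23 and -0.18. Chmp3, a filament subunit listed in the files as Vps24, was not in the detected range. Other ESCRT genes, outside the Snx and Vps names, were read from a list. Of 21, 15 were in the detected range, 9 of them lower and 6 higher, and their median was -0.21. At least 2-fold lower were 3 and at least 2-fold higher 0, where the shares over all genes in the range were 7.29% and 6.41%. The 3 were Tsg101 and the filament genes Chmp2a, from 1809 to 667 (-1.44), and Chmp2b, from 409 to 162 (-1.33), each with 1 sequence. The highest was Chmp1a, from 245 to 419 (0.77).

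The tethering complexes HOPS and CORVET share the core Vps11, Vps16, Vps18 and Vps33a. Vps11, a scaffold of that core, was at 1372 and 1932 (0.49), and its other 2 sequences were higher by 0.18 and 0.11. Vps18 was lower with each of its 3 sequences, from 304 to 187 (-0.70) with the brightest, and by -0.41 and -0.02 with the others. Of the HOPS-specific subunits, Vps39 differed by -0.24 and -0.17 with its 2 sequences, and Vps41 went from 161 to 84.1 (-0.94), where it stood at 1.11 times the random-sequence level. Vps8, specific to CORVET, gave -0.31 from its brightest sequence but 1.38 from another, which went from 98.7 to 256. No gene of these complexes reached 2-fold with its brightest sequence.

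Vps33b was, with Vps11, 1 of the 2 higher genes of this group. It is a homologue of Vps33a that works with Vipas39 outside HOPS and is needed for alpha granules of platelets. Its brightest sequence, annotated with a retained intron, went from 404 to 694 (0.78). The complete coding clone went from 365 to 743, a difference of 1.03 (chromosome 7, 87414829 to 87436464), and the remaining sequence differed by -0.23. All 3 share a span with Blm. Vipas39 was at 299 and 576, a difference of 0.95, with its 3 sequences ranging from -0.43 to 0.95. Megakaryocyte markers were split, with 2 of 4 lower, Pf4 at -1.19 and Ppbp at -1.40, and 2 higher, Gp9 at 0.05 and Itga2b at 0.49. Their relation to Vps33b was not tested.

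GARP was measured through Vps52, Vps53 and Vps54. Vps52 read 3939 and 3491, a difference of -0.17. Vps54, which marks GARP as opposed to its endosomal relative EARP, was at 141 and 110.3 (-0.35). Vps53 went from 251 to 378 (0.59) with its brightest sequence and from 205 to 83.0 (-1.30) with another that lies within the same span of chromosome 11. Both Vps53 sequences overlap Glod4.

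VPS13 proteins are long channels that move lipid between membranes in contact, and their genes gave the one value at 2-fold higher. Vps13b, of the Golgi, read 103 on the control and 237 on the knockout array, which differ by 1.20 (chromosome 15, 35301300 to 35369226). A second sequence that starts at the same coordinate read 91.3 and 93.9 (0.04), and the other 3 ranged from -1.01 to 0.44. Vps13a, the chorea-acanthocytosis gene, went from 259.5 to 151 (-0.78). Its 3 sequences in the detected range were all lower, by -0.72 to -1.41, but those at -0.72 and -1.41 were in that range on the control array alone. Vps13c, at contacts of late endosomes, went from 2078 to 1095 (-0.92) with a sequence annotated as a 5′ variant, while another sequence differed by 0.80. Vps13d, needed for mitochondrial shape, was at 195 and 286 (0.55), and its other 3 sequences ranged from -0.97 to 0.04.

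Vps45, a Sec1/Munc18 protein that guides the SNARE Stx16, went from 448 to 203, a difference of -1.14 (chromosome 3, 95803759 to 95861743). Its second sequence was below the random-sequence level. Mutation of this gene in people causes a congenital neutropenia. Of the 9 granulocyte and monocyte markers in the detected range, 8 were lower on the knockout array, among them S100a8 at -1.50 and Mpo at -0.94. Csf1r was at 1.19. A link between Vps45 and these markers was not tested. Stx16 was at 1013 and 678 (-0.58). Vps72 has a Vps name but encodes a histone chaperone subunit that loads H2A.Z. It was at 938 and 788 (-0.25), with its other sequence at -0.73.

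The 14 genes outside the detected range ranged from -0.85 to 0.85, and none reached 2-fold. Of these, 5 were at or below the random-sequence level on both arrays: Snx21, Snx31, Vps26a, Vps37c and Vps37d. The differences of these 5 genes are not interpreted. The others of the 14 were above the random-sequence level on at least 1 array but not above the median of either.

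Separate sequences of 1 gene gave the only repeat reading of a difference, within the same RNA. Their differences varied by an SD of 0.66 (log2) over all genes. Of the 22 members with several sequences in the detected range, all such sequences were lower in 9, all were higher in 2 and 11 were mixed. Over all 4969 such genes, 22.7% were lower throughout and 23.1% higher throughout, beside 40.9% and 9.09% of the 22. Lower throughout were Snx4, Snx8, Vps13a, Vps18, Vps25, Vps26b, Vps37a, Vps39 and Vps72, and higher throughout were Snx24 and Vps11. For Snx8 and Vps37a all such sequences were in the range on the control array alone, so their agreement was fixed by the filter. That also held for some sequences of Snx4, Vps13a and Vps26b. With the brightest sequence, 23.4% of the 47 members but 9.05% of all genes passed that way, so the shares of agreement partly restate the filter. None of the 22 had all its detected sequences at 2-fold, which over all genes held for 1.19% lower. The 28 detected sequences that were not the brightest of their gene had a median of -0.37, with 18 lower and 10 higher. The median over 7375 such sequences of all genes was -0.03. A sequence in the range on the control array alone, such as that of Snx18 at 242 and 110.4, is lower by construction. One in the range on the knockout array alone, such as that of Vps8 at 98.7 and 256, is higher by construction. This split is therefore no independent support for the lower values. Of the 10 members at 2-fold, 4 (Snx2, Snx5, Snx27 and Snx33) had 1 sequence and 6 had several.

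**Figure D3:**
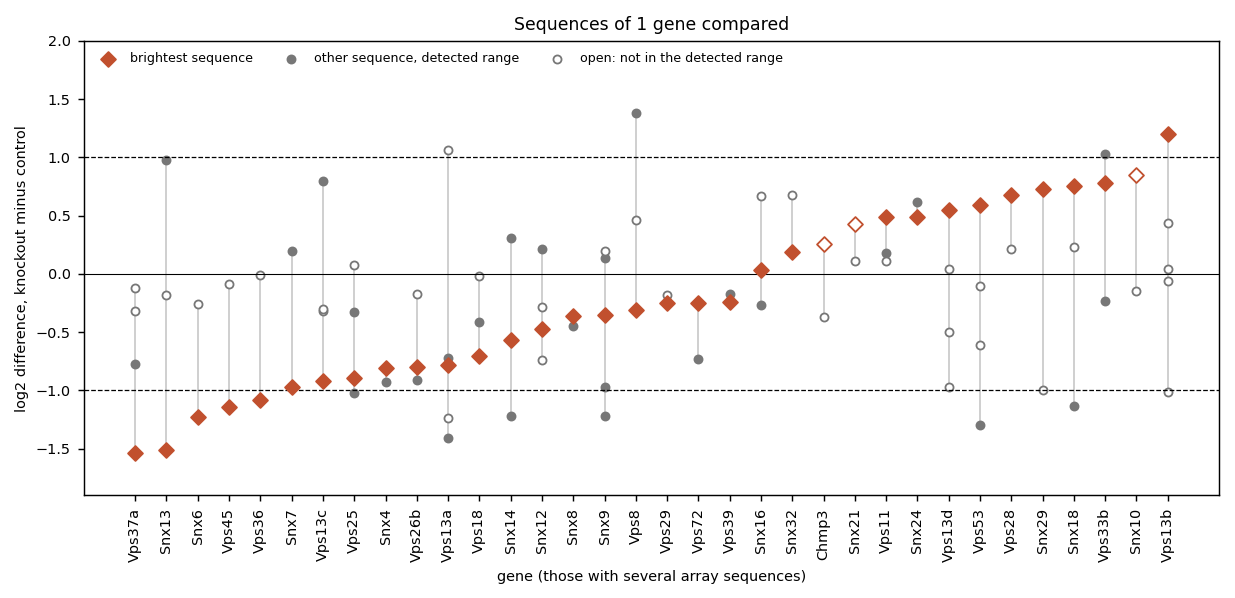
Log2 difference (knockout minus control) of every sequence of the 34 members with several sequences, with genes ordered by the brightest sequence (orange diamond), other sequences in the detected range as filled grey circles, and sequences outside it as open symbols. Points of Vps37a, Snx4, Vps18 and Vps26b lie on the lower side, while those of Snx13, Vps8, Vps53 and Snx18 lie on both sides of 0.

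Genes that act with the sorting nexins and retromer were read from lists. Retromer partners had a median of -0.11, with 6 of 10 lower. The only one at 2-fold was Washc2, the FAM21 tail by which WASH binds Vps35, from 466 to 151 (-1.63), and each of its 3 sequences was lower. Tbc1d5, which switches off Rab7 on retromer domains, was at 5304 and 3380.2 (-0.65), although its 6 sequences ranged from -1.10 to 1.42. Ankrd27, which binds Vps29, was the highest, at 1215 and 1972 (0.70).

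Of 13 cargo genes on the array only 5 were in the detected range, with a median of -0.41. Itgb1, a recycling integrin, went from 1428 to 827 (-0.79) and was lower with all 3 sequences, the lowest at -2.04. Lamp1 went from 181 to 74.4, which was not above the random-sequence level (measured difference -1.28). The phosphoinositide genes had a median of 0.08. In that list Mtm1, a phosphatase of PI3P, went from 1066 to 378 (-1.50) and Eea1, the tether that binds PI3P, from 229.6 to 101 (-1.19), while Uvrag, a partner of HOPS and the PI 3-kinase, went from 76.0 to 172 (1.18). Each had sequences that did not share its difference, with the highest of 6 at 1.05 for Mtm1, the other of 2 at 0.41 for Eea1 and the lowest of 4 at -0.0013 for Uvrag. Tethering partners had a median of -0.0082, with none of 15 at 2-fold, from Stx7 at -0.75 to Vipas39 at 0.95. Across all these lists 54 genes were in the detected range, with 7 at least 2-fold lower, 1 at least 2-fold higher and a median of -0.08, where the shares over all genes in that range were 7.29% and 6.41%.

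**Figure D4:**
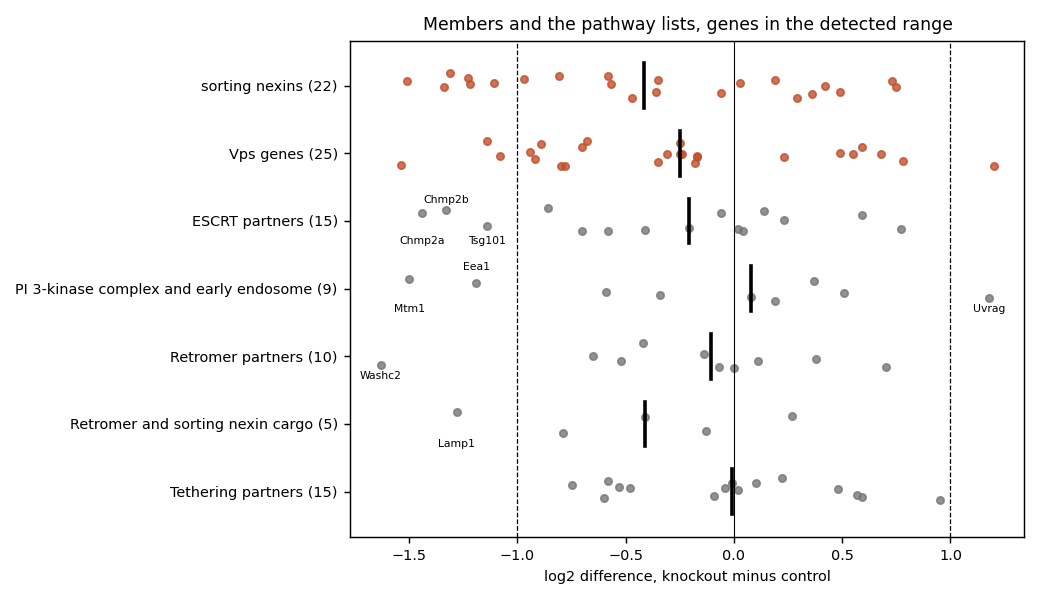
Log2 difference (knockout minus control) of each gene in the detected range, for the 22 sorting nexins and 25 Vps genes (orange) and 5 lists of partner genes (grey), with the number of genes in brackets, a black bar at the median and dashed lines at 1 and -1. The median bar lies at -0.41 for sorting nexins, -0.25 for Vps genes and close to 0 for tethering partners, and the points of every list fall on both sides of 0.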

How the data were processed

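The authors deposited 1 intensity per sequence for each array, on a linear scale. They came from RMA, per the submitters' processing notes, a method that in general corrects background, normalizes between arrays and summarises the probes of a sequence (3 for every member). Its version and settings are not known here. Between-array normalization hides a shift shared by most genes. The authors' series table held 34218 of the sequences and 56 of the 61 members, with values within 0.0412 of the array files. Intensities were taken to log2 with Python 3.11.15 and pandas 2.3.3, without further scaling. Symbols were updated by gene identifier through the RefSeq table of GRCm38.p6, which changed Snx26 to Arhgap33 and Vps24 to Chmp3. Coordinates are MM9 as in the files. A fixed 2-fold size stood in for a test, and where a value was at or below the random-sequence level that level gave a bound. The counting steps were checked on simulated data, with planted differences larger than those of the members and less noise than between sequences of 1 gene. That checks the code and not how reliable the counts are. Named were all members at 2-fold, the retromer group, and the extremes of each other complex. Others were named after their values were seen. From partner lists the rule named genes at 2-fold and the extremes, and Snf8, Wls, Stx16, Tbc1d5 and Itgb1 were added after their values were seen, as were the individual cell type markers. Members and lists were chosen with earlier results of these data known. The number of arrays limits the precision.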

Additional observations from a re-analysis of the deposited data

How the results depend on the processing

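No paired analysis was possible because there was only 1 array for either genotype. The median difference of the members, -0.35 over 47 genes in the detected range, was -0.21 with the dimmest sequence (24 genes), -0.24 without a filter on dim genes, -0.24 with the percentile 75 filter and -0.25 where both values had to exceed the random-sequence level. It stayed negative in these and in the other 8 alternatives, and within 0.1 of the reported value in those 8. The count of 9 genes at least 2-fold lower was 5 with an offset of 50 before the log (10.6%, beside 4.52% of all genes). With the mean of sequences it was 4 of 37 genes (10.8%, beside 5.77%). It was 4 of 24 with the dimmest sequence (16.7%, beside 9.10%) and 4 of 24 with the percentile 75 filter (16.7%, beside 7.13%). At 1.5-fold it was 18 (38.3%, beside 18.3%), and at 3-fold 0 (beside 1.72%). The count of 1 gene at least 2-fold higher was 0 with the offset, the mean, the dimmest sequence, the percentile 75 filter and 3-fold. The shares over all genes there were 3.53%, 4.87%, 7.44%, 5.68% and 1.49%. At 1.5-fold the count was 6 (12.8%, beside 18.5%). It was 2 without chimeric or retained-intron clones (4.26%, beside 6.41%), where Vps33b joined Vps13b. Filters and sizes change these counts by construction. Each of the 10 genes at 2-fold kept its sign in the 8 alternatives that bear on single genes, but most of these had little room to change it. An offset cannot change a sign, and the array medians were already equal. For Snx2, Snx5, Snx27 and Snx33, with 1 sequence each, the mean and the dimmest sequence repeat the reported value. The dimmest sequence left Snx13 at -0.18, Snx6 at -0.26 and Vps36 at -0.0082. It left Vps37a at -0.12, Vps45 at -0.09 and Vps13b at 0.44. The mean of sequences left Snx13 at -0.23, Vps37a at -0.69 and Vps13b at 0.12. Neither setting reads the Snx13 sequence at 0.98 by itself. The leaving out of clones and the random-level filter were chosen after seeing the data.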

Other observations

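The 61 genes lay on 19 chromosomes, and a few were near each other on MM9. Snx2 and Snx24, 25.2 kb apart on chromosome 18, differed in opposite directions, at -1.31 for Snx2 and at 0.49 and 0.62 for the 2 sequences of Snx24. On chromosome 3, Snx27, Vps72 and Vps45 lie in that order with gaps of 529 kb and 877 kb, and all 3 were lower, by -1.34, -0.25 and -1.14. On chromosome 5, Vps33a and Vps37b, 432 kb apart, differed by -0.17 and -0.68. Neighbours were listed within 2 megabases after the values were seen, and no test was made of them.

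Some brightest sequences carry annotation that limits what they read. Of the 61, 7 share their span with a named gene other than their own. Arhgap33 overlaps Etv2 and Gapdhs, Snx32 overlaps 1700020D05Rik, and Vps54 overlaps B830008J18Rik. Probe positions and strand were not used here, so whether signal of the overlapping gene enters the member's value was not tested.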
